A study of Mus musculus with 7 samples.

Results

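Cytosolic ribosomal protein genes were taken as protein-coding autosomal genes of the GENCODE annotation (GRCm38) whose symbol is Rpl or Rps followed by a number, together with Rplp0, Rplp1, Rplp2 and Rpsa. Ribosomal S6 kinases and pseudogene symbols were left out. The rule gave 76 genes, 30 of the small and 46 of the large subunit, of 20696 autosomal protein-coding genes. Their promoters were looked up in ATAC-seq peak lists, which record where chromatin is open to a transposase that inserts sequencing adapters.

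The lists came from spontaneous mammary tumours of mice on a C57BL/6 background that carried the MMTV-PyMT transgene, in which the mammary tumour virus promoter drives the polyoma middle T oncoprotein. All samples also carried mCherry as a reporter for the Notch ligand Dll1 on a bacterial artificial chromosome (BAC), so that the sort read the reporter and not the Dll1 protein. Cells positive for CD45, CD31 or Ter119 were sorted out, and the remainder was divided into mCherry+ (Dll1+) and mCherry− (Dll1−) tumour cells. Dll1+ was represented by 3 samples and Dll1− by 4 samples of 4 tumours, of which 3 gave both. The authors pooled the samples of a group, so each group was 1 peak list, no difference between groups could be set against the spread between samples, and no p-value was computed. In pooled cells, fewer cells with an open promoter and fewer insertions per open promoter cannot be told apart.

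Ribosomal proteins assemble with ribosomal RNA into the small subunit, which decodes mRNA, and the large subunit, which forms peptide bonds. Their genes are transcribed in nearly all cells and in near-equal amounts. Their transcripts typically begin with a run of pyrimidines, the 5′ terminal oligopyrimidine (TOP) tract, through which growth signalling controls translation. Many of the genes also carry small nucleolar RNAs in their introns.

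The Dll1+ list held 132872 rows and the Dll1− list 148923 rows, each row being a summit with its interval. The genome-wide background recovered from the deposited values was 3.74 reads in Dll1+ and 7.20 reads in Dll1−, so the Dll1− list was deeper by a ratio of 1.93. Depth, the number of tumours and the cell population differed together between the lists and cannot be told apart. Strength was therefore compared as a rank, the percentile of a promoter's strongest row by fold enrichment among all rows of its own list. The sorted cells were checked against regions within 1000 bp of a transcription start site of marker genes. All 7 epithelial markers examined (Epcam, Cdh1, Krt8, Krt18, Krt19, Cldn3 and Cldn4) had a region in both lists. All 7 ranked lower in the Dll1+ list, with median percentiles of 72.1 in Dll1+ and 77.3 in Dll1−. Their median difference was −7.11 points, against −1.69 over all promoters in both lists. Among immune markers, Ptprc, which encodes CD45, and Cd3e and Itgam had none, Csf1r had a region in the Dll1− list only and Cd74 in both. Pecam1, which encodes CD31, had none, and of the other 4 endothelial markers only Kdr had a region. Of 6 fibroblast markers, Col1a1 and Pdgfra had regions in both lists and Col1a2 and Pdgfrb in the Dll1− list only. The regions of Col1a1 and Pdgfra began 570 bp or more downstream of the start site of the principal coding transcript. They therefore do not show that promoter as open. Of 4 basal markers, Acta2 alone had a region. Klf1 and Epor, which are used in erythroid cells, had regions in both lists and Hba-a1 had none. No erythroid region had its strongest summit between 150 bp upstream and 50 bp downstream of the principal start site. The part of such cells in the values below was not tested.

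The pyrimidine tracts are shown first because they are what most of these promoters share in sequence. The longest uninterrupted run of C and T on the coding strand within 50 bp of the annotated transcription start site (TSS) is printed in capitals, with flanking bases, 5′ to 3′, from GRCm38.p6. Position +1 is the TSS base.
Rps24: agcggTCCTCTTTTCCTCCTCTCCagctcc
Rpl32: ccgccgCCTCTTCCTTCTTCCTCggcgctg
Rpl11: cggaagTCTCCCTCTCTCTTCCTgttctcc
Rpl4: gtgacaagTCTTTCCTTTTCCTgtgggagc
Rpl19: gcggcccacaagCTCTTTCCTTTCgctgct
Rpl35a: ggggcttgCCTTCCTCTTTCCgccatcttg
Rpl23a: gggctgggccaTCCTTTTCagccaagatgg
Rpl15: tgtcccagcctgaCTCCgcccaccaggttg
Rps29: cccgcccagccagCCTTagaaatgtcactc
Rps24 and Rpl32 are printed for tracts that span the TSS, Rpl11 for a long tract just downstream of it, Rpl4 and Rpl19 as the weakest promoters, Rpl35a and Rpl23a for their difference between lists, and Rpl15 and Rps29 as strong promoters with a short run.
The Rps24 sequence is chr14:24490711-24490740 on the plus strand and its tract of 19 bases starts at −2. The Rpl32 sequence is chr6:115808727-115808756 on the minus strand, with 17 bases from −3. The Rpl11 sequence is chr4:136053357-136053386 on the minus strand, with 17 bases from +14. Those of Rpl4 (chr9:64173361-64173390, plus strand) and Rpl19 (chr11:98026944-98026973, plus strand) held 14 and 12 bases. Those of Rpl35a (chr16:33056469-33056498, plus strand) and Rpl23a (chr11:78183540-78183569, minus strand) held 13 and 8 bases. In Rpl15 (chr14:18271099-18271128, minus strand) and Rps29 (chr12:69159204-69159233, minus strand) the longest run was 4 bases.

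A tract of at least 8 pyrimidines lay near the TSS of 50 of the 73 ribosomal protein promoters found in the lists (68.5%). The same held for 32.5% of all promoters in both lists. Purine runs of that length went the other way, at 16 promoters (21.9%) against 34.8%. Among promoters whose representative TSS lay inside the region the pyrimidine shares were 69.4% and 31.1%. Other genes known for TOP mRNAs, many of them translation factors, had such a tract in 15 of 21 promoters (71.4%), and mitochondrial ribosomal protein genes, whose products form a separate ribosome, in 32.1% of 78. The share in ribosomal protein promoters was therefore near that of other TOP genes and above that of the mitochondrial ribosome, as a description of these windows.

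Exact motif letters were searched on both strands from 250 bp upstream to 50 bp downstream of the TSS. The ETS factor motif (CCGGAAG) was found in 24 ribosomal protein promoters (32.9%) and in 16.8% of all promoters in both lists. The SP1 motif (GGGGCGG) was found in 18 (24.7%) against 43.3%, and the NFY motif (CCAAT) in 23 (31.5%) against 37.7%. The other 6 motifs were each found in fewer than 10 of the promoters. A TATA box (TATAAA) lay in 8 promoters (11.0%) against 7.49%, among them Rplp0, Rps2 and Rps14, and the E-box (CACGTG) in 9 (12.3%) against 9.68%. The YY1 motif (AAGATGGC) lay in 5 (6.85%) against 4.30%, the NRF1 motif in 5 against 9.71%, the CRE motif (TGACGTCA) in 5 against 3.49%, and the AP-1 motif (TGANTCA) in 4 (5.48%) against 4.68%. ETS and SP1 letters can overlap other G- and C-rich matches, and a match is a description of letters only. Median GC content was 56.0%, against 60.7% over all promoters in both lists, and the CpG ratio of observed to expected was 0.86 against 0.75.

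**Figure D1:**
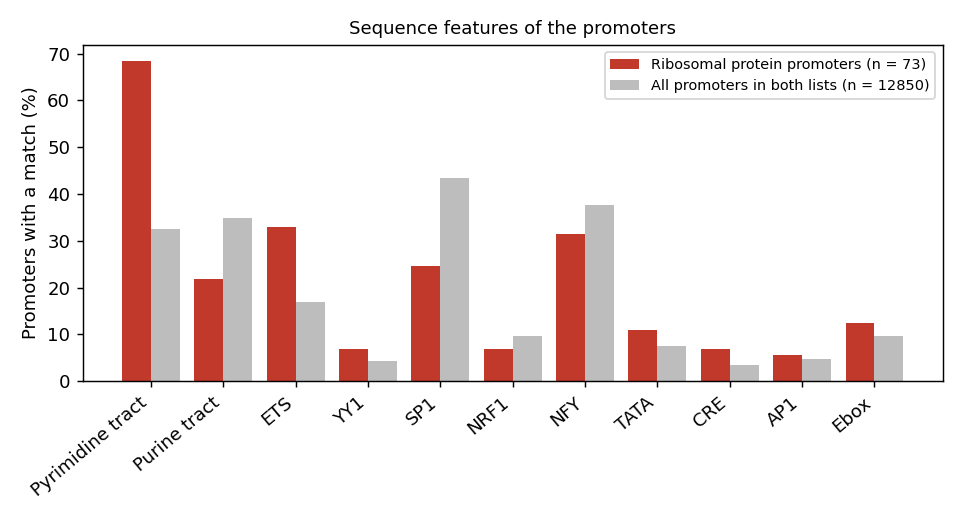
Share of promoters (percent, vertical axis) with a pyrimidine or purine run of at least 8 bases within 50 bp of the TSS, or with each motif between 250 bp upstream and 50 bp downstream, for 73 ribosomal protein promoters (red) and all promoters with a region in both lists (grey). The pyrimidine tract is at 68.5% against 32.5%, and the SP1 motif at 24.7% against 43.3%.

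A promoter was counted as open where a union region, formed from rows of both lists that overlapped or touched, lay within 1000 bp of a TSS of the gene. Of the 76 genes, 73 (96.1%, Wilson 95% interval 89.0% to 98.6%) had a region that held rows of both lists. Over all autosomal protein-coding genes the share was 62.1%. The 73 genes had 73 distinct regions, and the TSS lay inside the region in 72. The exception was Rpl35, 110 bp from its region. None of the 76 genes had a region in 1 list only. The limit of 3.95% on that share covers counting error only, as if the genes were independent draws. Over all genes 3.93% had a region in the Dll1− list only, 0.788% in the Dll1+ list only and 33.2% none.

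The 3 genes without a region were Rpl3l, Rpl10l and Rpl39l, all of the large subunit. They are paralogs used in place of the ubiquitous gene in particular tissues: Rpl3l in heart and skeletal muscle, Rpl10l and Rpl39l in the testis. Rpl3, the ubiquitous autosomal counterpart of Rpl3l, lies near the peptidyl transferase centre. It had fold enrichments of 15.1 in Dll1+ and 15.7 in Dll1−. Rpl10 and Rpl39 were not among the autosomal genes of the rule. Rps27l, a paralog of Rps27 that is a target of p53, was present in both lists at 15.5 and 15.1. So all 30 small subunit genes, paralog included, had an open promoter in both lists.

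Open ribosomal protein promoters were near the top of both lists. The median rank was the 91.2 percentile of the Dll1+ list (range 51.6 to 99.3) and the 92.5 percentile of the Dll1− list (61.1 to 99.8). Over all promoters in both lists the medians were 86.1 and 88.8. The median fold enrichment was 14.3 and 14.4, against 12.2 and 12.4. Of the 73 promoters, 39 (53.4%) were in the top 10% of both lists, against 37.2% of all promoters. None was below the median row of either list (limit of 4.11% for counting error only), and 11.4% of all promoters were. Small subunit promoters ranked at medians of 92.5 and 93.4 and large subunit promoters at 89.2 and 90.2.

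Rpl15, a large subunit gene mutated in some cases of Diamond-Blackfan anaemia, had the strongest promoter by mean rank. Its fold enrichment was 22.5 in the Dll1+ list, on 728 reads at the summit, and 25.8 in the Dll1− list, on 1160 reads. It was at the 99.3 and 99.8 percentiles. Rpl27 followed at fold enrichments of 21.8 and 24.8 and percentiles of 99.0 and 99.7. Rps29 was at 21.9 in both lists, at the 99.0 and 99.1 percentiles. Rps26, which lies at the mRNA exit channel, reached the 98.5 and 99.6 percentiles. The lists differed by about 1 percentile point or less for each of these genes.

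The weakest promoter was that of Rpl19, which takes part in a bridge between the subunits. Its fold enrichment was 5.72 in Dll1+ and 6.10 in Dll1−, at the 51.6 and 61.1 percentiles. Rpl4, with an extension that lines the peptide exit tunnel, was at 5.99 and 6.58 and at the 54.1 and 64.5 percentiles, and rested on 29 and 69 reads. Rpl36 was at the 56.2 and 63.2 percentiles, Rpl18 at 58.4 and 74.7, and Rpl38, known for its part in translating Hox mRNAs, at 60.4 and 77.4. All 5 belong to the large subunit, and all 5 ranked lower in the Dll1+ list.

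**Figure D2:**
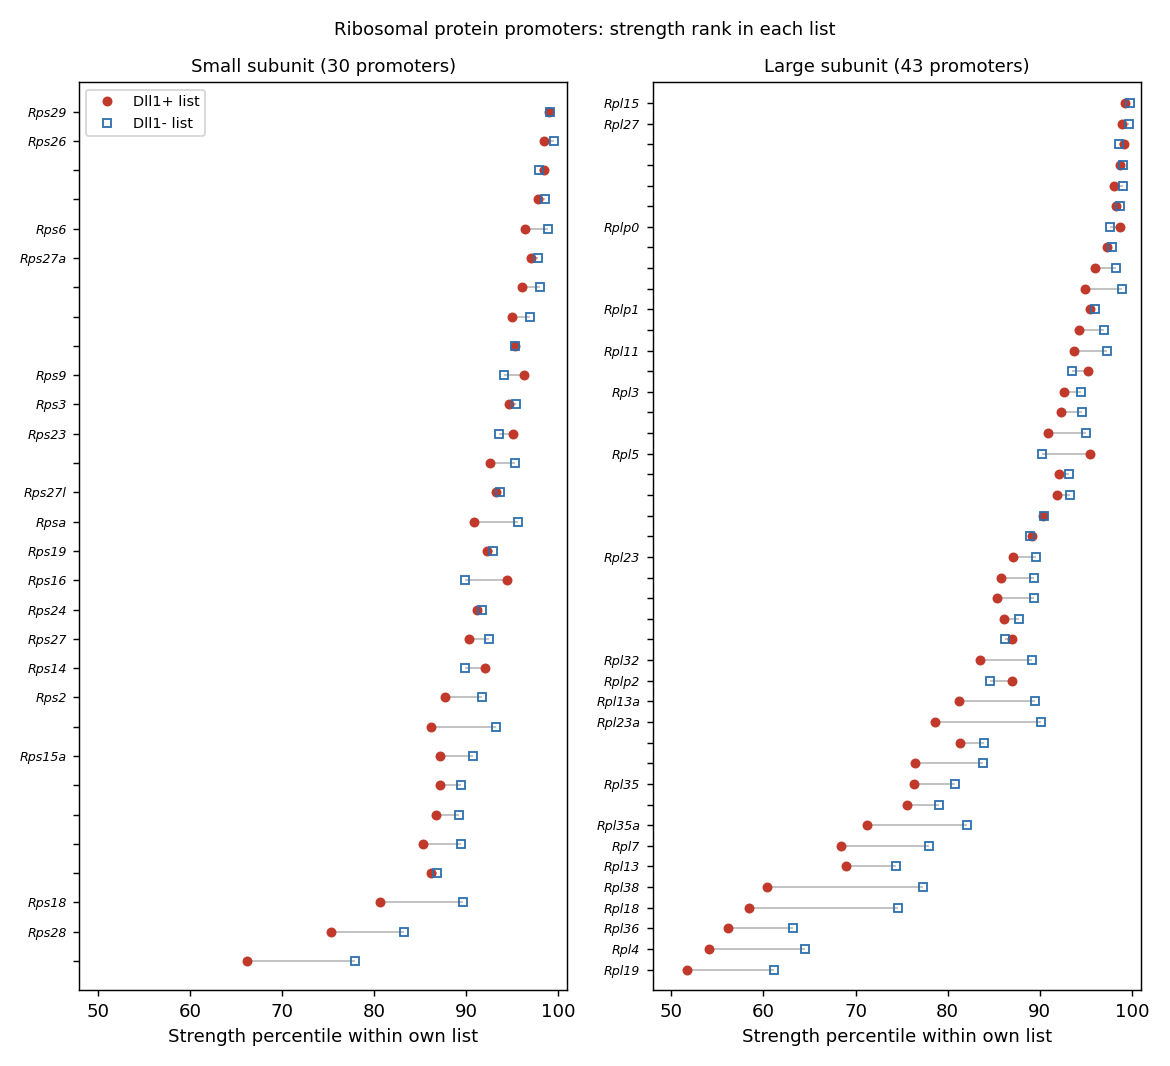
Strength percentile of each ribosomal protein promoter within its own list (horizontal axis), small subunit at left and large subunit at right, ordered by mean percentile, with the genes named in the text labelled. Red circles are the Dll1+ list, blue squares the Dll1− list, with 1 pooled value each. The symbols nearly coincide at the top and separate at the bottom, where the Dll1− symbol is to the right.

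The proteins of the stalk, which recruits elongation factors to the large subunit, did not share a level. Rplp0, its base, had fold enrichments of 21.2 in Dll1+ and 18.9 in Dll1−. Rplp1 was at 17.0 in both lists. Rplp2 was lower, at 12.5 and 10.8, and its percentiles were 87.0 and 84.6. Of the genes whose products bind 5S ribosomal RNA and the p53 regulator Mdm2, Rpl5 was at fold enrichments of 17.0 and 13.1 and Rpl11 at 15.7 and 18.5, so that they were ordered differently in the lists. Rps6, the target of the S6 kinases, was at 17.9 and 21.4. Rps3, which contacts mRNA as it enters, was at 16.5 in both lists. Rpsa, also known as a laminin receptor, was at 14.1 and 16.7, Rps19, often mutated in Diamond-Blackfan anaemia, at 14.9 and 14.6, and Rps27a, made as a fusion with ubiquitin, at 18.5 and 19.2.

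The rank difference, Dll1+ percentile minus Dll1− percentile, had a median of −2.17 points over the 73 promoters (interval of the median over genes −2.72 to −0.79, as a description). Over all 12852 promoters in both lists the median was −1.69. The difference was negative for 61 promoters and positive for 12, whereas it was negative for 70.4% and positive for 29.6% of all promoters. A difference of over 5 points was called. By this rule 16 ribosomal protein promoters were lower in the Dll1+ list (21.9%), against 27.9% of all promoters. Only Rpl5 was higher (1.37%), against 7.48% of all promoters. The share called lower was near that of promoters in general. The unequal lengths of the lists move the ranks: with equal numbers of rows, the strongest of each list, the median difference was −1.17 points, against −0.60 over all promoters, and 12 promoters were called lower, against 19.2% of all promoters. The median was −1.50 for small subunit and −2.51 for large subunit promoters, and 4 and 12 of them were called lower.

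Rpl38 differed most, at −17.0 points. Its fold enrichment was 6.73 in Dll1+ and 8.80 in Dll1−, on 74 and 215 reads. Rpl18 was next at −16.3 points, from 6.49 and 8.24. Rpl23a, part of the docking site at the tunnel exit, was at −11.6 points, from 9.93 and 13.1. Rpl35a, another Diamond-Blackfan gene, was at −10.9 points, from 8.41 and 10.1. The fold enrichment itself was therefore lower in the Dll1+ list by a ratio of 0.77 for Rpl38 and 0.76 for Rpl23a.

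At the other end, Rpl5 was 5.21 points higher in the Dll1+ list, with fold enrichments of 17.0 and 13.1 on 143 and 199 reads. Rps16 was 4.55 points higher, from 16.2 and 12.9. Rplp2 was 2.44 points higher, Rps14, lost in a form of myelodysplastic syndrome, 2.16, and Rps9 2.11. These 4 were within the 5 points that separate called from uncalled promoters. The promoters called lower that were nearest to the limit were Rpl13 at −5.52 and Rpl32 at −5.61, and Rpsa at −4.86 was just inside it.

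**Figure D3:**
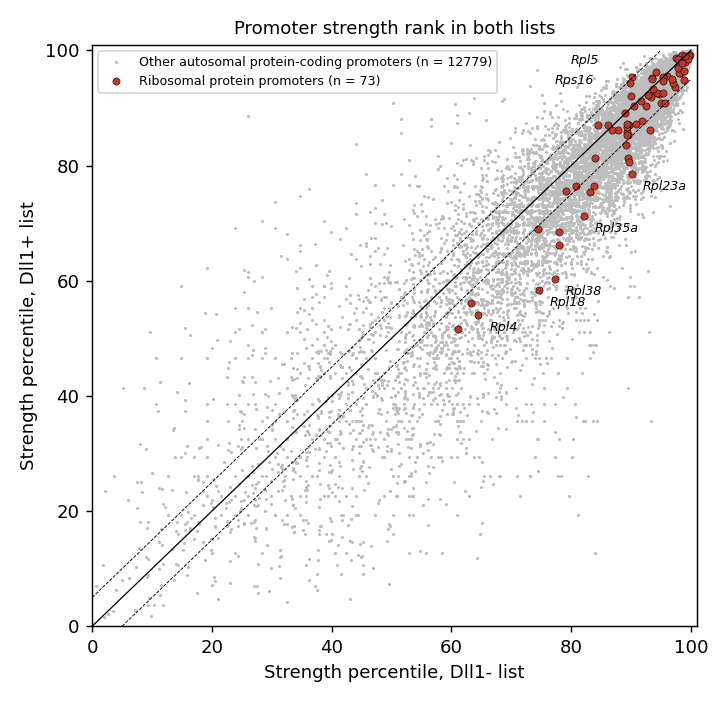
Strength percentile in the Dll1+ list (vertical axis) against the Dll1− list (horizontal axis) for 73 ribosomal protein promoters (red) and 12779 other promoters (grey). The solid line marks equal ranks and the dashed lines 5 points either way. Of the red points, 16 lie under the lower dashed line and Rpl5 lies above the upper one.

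The differences went with strength. Of the 12 ribosomal protein promoters with a mean rank under 80, all 12 were lower in the Dll1+ list and 10 were called lower. Of 4437 promoters of all genes in that range, 69.3% were lower and 51.5% were called lower. Between mean ranks of 80 and 90, 6 of 20 were called lower, against 32.9% of all promoters. Between 90 and 95, none of 17 was called lower, against 12.3%, and above 95 none of 24, against 0.461%. Percentiles leave little room for a difference near 100. The ranges were chosen after the values were seen. Across the 73 promoters the ranks in the lists had a Pearson correlation of 0.96 and a Spearman correlation of 0.93. Over all promoters these were 0.91 and 0.94. The points share the library pool and depth of their list.

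Reads at the summit were also compared after division by the genome-wide background of the list, without the local background that enters the fold enrichment. On this scale the median ratio of Dll1+ to Dll1− was 1.07, against 1.13 over all promoters. It was above 1 for 46 ribosomal protein promoters and below 1 for 27, and above 1 for 72.9% of all promoters. Of the 16 promoters called lower by rank, 12 had a scaled ratio below 1, against 60.1% of all promoters called lower. The fold enrichment that gave the call uses the same summit reads, so the measures are not independent. It was 0.66 for Rpl38, 0.85 for Rpl23a, 0.90 for Rpl18 and 0.96 for Rpl35a. Rpl19, Rpl36, Rpl13 and Rpl7 were lower in rank with ratios of 1.06, 1.03, 1.06 and 1.18. The highest ratios were 1.53 for Rps23, 1.44 for Rps9 and 1.40 for Rps29, and that of Rpl5 was 1.38. The local background was 3.18 times the genome-wide value at the median ribosomal protein promoter in Dll1+ and 2.99 times in Dll1−, against 2.99 and 2.69 times over all promoters. Its part in the rank differences was not tested.

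Widths were nearly equal in the lists. The median width of a ribosomal protein promoter region was 959 bp in Dll1+ and 920 bp in Dll1−, against 936 and 908 bp over all promoters. The median ratio of widths was 1.01 (interval over genes 0.99 to 1.07), against 1.02. The region was wider in the Dll1+ list for 40 promoters, narrower for 32 and equal for 1. Where a ratio of over 25% between the larger and the smaller width was called, 10 were wider (13.7%), against 10.4% of all promoters, and 4 were narrower (5.48%), against 8.29%. Of the 10 wider promoters, 6 belonged to the small subunit, whose median ratio was 1.06. That of the large subunit was 1.00. More summits were listed in the Dll1+ list at 22 promoters, against 29.1% of all promoters, fewer at 9, against 14.1%, and equally many at 42, against 56.8%.

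Rpl32 had the largest ratio of widths, at 1.62, with 1256 bp in Dll1+ and 774 bp in Dll1−. Rpl27 was at 1.59 (858 and 539 bp). Both promoters had 1 or more additional summits in the Dll1+ list. The narrowest in the Dll1+ list was Rpl19, at 0.51 (394 and 772 bp), followed by Rpl36 at 0.62 (290 and 465 bp) and Rpl23, which binds Mdm2, at 0.69 (811 and 1171 bp). Rpl19 and Rpl36 were also among the weakest promoters. The widest region in both lists was that of Rpl7, with 2212 and 2192 bp, which also holds the TSS of Rdh10 on the opposite strand.

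**Figure D4:**
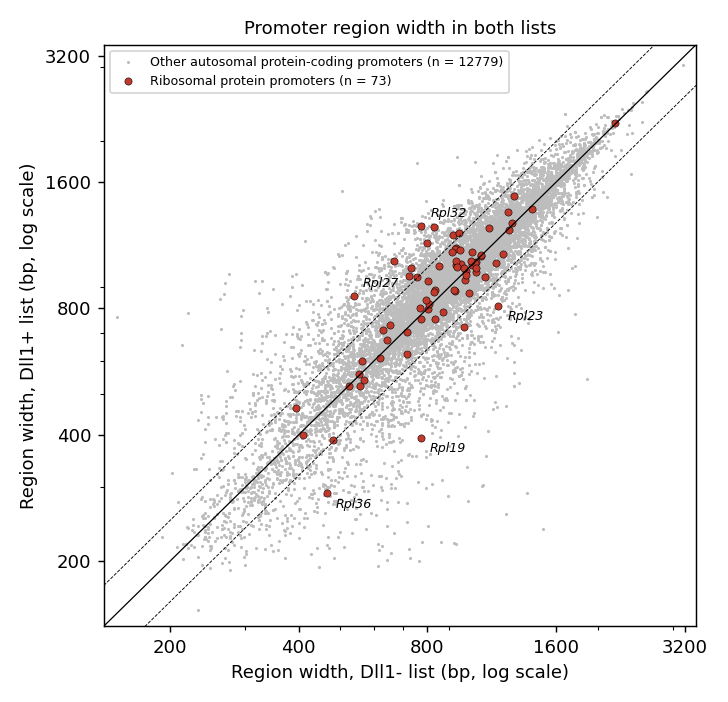
Region width in the Dll1+ list (vertical axis, bp, log scale) against the Dll1− list (horizontal axis, bp, log scale) for 73 ribosomal protein promoters (red) and 12779 other promoters (grey). The solid line marks equal widths and the dashed lines a difference of 25% over the smaller width. Most red points lie between the dashed lines, Rpl32 and Rpl27 above them and Rpl19, Rpl36 and Rpl23 below.

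The strongest summit lay at nearly the same base in both lists. The gap between the summits of the lists had a median of 9 bp and was at most 25 bp for 67 promoters (91.8%), against 79.9% of all promoters. The largest gaps were 299 bp at Rpl32 and 271 bp at Rpl7. The median position was 24 bp upstream of the representative TSS in Dll1+ and 19 bp upstream in Dll1−. The summit lay between 150 bp upstream and 50 bp downstream of that TSS for 61 promoters in Dll1+ (83.6%) and 64 in Dll1− (87.7%). With promoters restricted to those whose representative TSS was inside the region, the shares were 84.7% and 88.9%, against 66.7% and 68.2% of all promoters. The summit was upstream of the representative TSS at 49 promoters in Dll1+ and 50 in Dll1−, and in an untranslated exon at 24 and 23.

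The regions of the genes named above are given on GRCm38. That of Rpl38 was chr11:114668331-114669441, with summits 48 and 34 bp downstream of the TSS in the untranslated exon. That of Rpl18 was chr7:45714528-45715554, with summits upstream of the representative TSS. That of Rpl13a, called lower in the Dll1+ list at −8.24 points, was chr7:45128621-45129240 on the minus strand. The region of Rpl5 was chr5:107900343-107901414, with summits in the untranslated exon, and that of Rpl15 was chr14:18270520-18271541, with summits upstream of it.

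**Figure D5:**
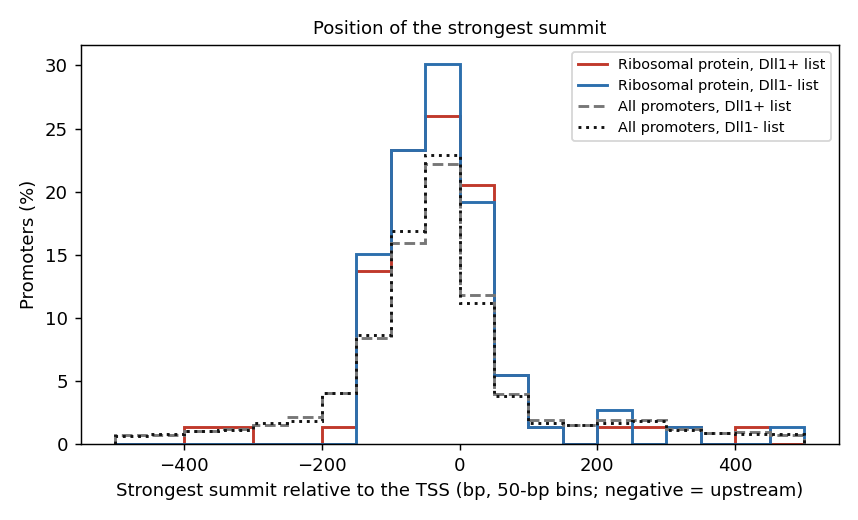
Position of the strongest summit relative to the representative TSS (horizontal axis, bp, 50-bp bins, negative upstream) as a share of promoters (vertical axis, percent), for ribosomal protein promoters (red, Dll1+; blue, Dll1−) and all promoters (dashed and dotted). The red and blue lines are higher than the others between 150 bp upstream and 50 bp downstream of the TSS.

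Some regions are shared with another gene. A TSS on the opposite strand lay in the region of 12 ribosomal protein promoters (16.4%), against 15.2% of all promoters and 38.5% of those of the mitochondrial ribosome. Of these 12, 5 were called lower in the Dll1+ list: Rpl18 (with Sphk2), Rpl35a (with Iqcg), Rpl7 (with Rdh10), Rps18 (with Vps52) and Rps28 (with Ndufa7). The other 61 promoters held 11 that were called lower. Over all genes 19.9% of divergent and 29.4% of other promoters were called lower. In such a region the strength of the 2 genes cannot be told apart. Small nucleolar RNAs lie within 27 of the genes, 54 in all, with 5 in Rpl4 and 4 in Rpl13a.

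Rank differences were also described by sequence. The median difference was −2.67 points for promoters with a pyrimidine tract of at least 8 bases and −0.68 for those without. Over all promoters the medians were −1.71 and −1.68, in the mitochondrial ribosome −2.53 and −1.36, in the same order as here, and in other TOP genes −1.64 and −5.88, in the opposite order. The 5 promoters with the YY1 letters were Rpl18, Rpl23a, Rpl35a, Rps15a and Rps27, with a median difference of −10.9 points, against −1.88 for the others. Over all promoters the medians with and without these letters were −1.56 and −1.69. This comparison was picked after the values were seen. With the NFY letters the median was −0.54 and without them −2.40, and over all promoters −1.18 and −2.08.

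Promoters of other parts of the protein synthesis and turnover machinery gave the scale for these values. Regions in both lists were found for 78 of 78 mitochondrial ribosomal protein genes, 35 of 38 proteasome genes, 61 of 64 genes with the symbols of translation initiation and elongation factors, 21 of 21 other TOP genes and 16 of 17 regulators of ribosome production. The symbols of translation factors also take in their kinases, methyltransferases and binding proteins. Median ranks were 92.1 and 93.6 for the mitochondrial ribosome, in the Dll1+ and Dll1− lists, 92.6 and 94.98 for the proteasome, 89.7 and 91.4 for translation factors, 88.8 and 92.3 for other TOP genes and 85.1 and 88.4 for the regulators. Ribosomal protein promoters, at 91.2 and 92.5, lay within this range. The median rank difference was −1.51 for the mitochondrial ribosome, −1.24 for the proteasome, −1.93 for translation factors, −2.45 for other TOP genes and −1.83 for the regulators. In the same order, 21 (26.9%), 7 (20.0%), 16 (26.2%), 8 (38.1%) and 2 (12.5%) were called lower, against 27.9% of all promoters. Called higher were 4, 0, 2, 0 and 0, against 7.48% of all promoters. The most negative difference in the mitochondrial ribosome was −21.0 points (Mrpl23) and in other TOP genes −15.1 points (Naca, a subunit of the nascent polypeptide-associated complex). The most positive was 15.3 points (Mrpl3). Among ribosomal protein promoters the differences ran from −17.0 points for Rpl38 to 5.21 for Rpl5.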

How the data were processed

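ATAC-seq peak lists of Dll1+ and Dll1− mammary tumour cells were analysed. Peaks were called by the authors with the ENCODE ATAC-seq pipeline, all samples of a group being run together, and the optimal set was deposited as 1 list per group. The aligner, peak caller and thresholds are not given in the sources used here, and per-sample values were not analysed here. The deposited fold enrichment is the ratio of reads at a summit to the local background. The deposited −log10 p-value was used in an alternative, and the deposited −log10 q-value and score were not used. The submitters' processing notes name mm10 and GRCm38, and 0 rows passed a chromosome end of GRCm38.

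TSSs of coding transcripts were taken from GENCODE M21 (basic set) and sequence from GRCm38.p6. Rows of both lists that overlapped or touched were merged into 119215 union regions, and the region nearest to a TSS within 1000 bp was used. A rank is the percentile, within a list, of the strongest row the region held, and width is the summed length of a list's merged rows in the region. Calls were set at 5 points and at 25% between widths, without a test. The representative TSS is that of the principal coding transcript. Summit reads and local background were solved from fold and −log10 p under Poisson counting, the fold being reads plus 1 over background plus 1. This gave whole reads, within 0.05, for 100% of Dll1+ rows and for all but 1 Dll1− row. Wilson 95% intervals and limits on a share of 0 (3 counts) cover counting error only. Scripts ran in Python 3.11.15 with numpy 2.4.6, pandas 2.3.3, scipy 1.17.1, pysam 0.24.0 and matplotlib 3.10.9, and were tested on simulated data.

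The genes named were those without a region, the 5 with the highest and lowest mean rank, the 5 with the most positive and most negative rank difference, the 3 widest and 3 narrowest ratios, and genes picked by role. Others are named where a count or a shared region turned on them, after their values were seen. The members, gene lists, motifs and markers were chosen with earlier results of these data known. A few genes that this rule or the marker lists would name are not reported here, and counts and medians include them.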

Additional observations from a re-analysis of the deposited data

How the results depend on the processing

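No paired analysis was possible because the samples of each group were pooled into 1 list, and for the same reason no sample could be left out. The share of genes open in both lists stayed at 96.1% with windows of 250 and 2500 bp, with rows above their list's median only and with a reciprocal overlap of 50%. The median rank difference stayed negative under every alternative run. It moved most with equal numbers of rows, from −2.17 to −1.17 points, as the median over all promoters moved from −1.69 to −0.60. Higher and lower were called at 5 points unless stated, and are given with the share of all promoters in parentheses. With X-linked genes and near relatives added, 2 promoters were called higher in Dll1+ (7.51%). Ranked by −log10 p, the median rank in Dll1− was 94.6 and 0 promoters were called higher (5.52%). Ranked by recovered reads, an alternative added after the data were seen, these were 94.5 and 0 (4.55%). Ranked among regions of both lists, the medians were 85.3 in Dll1+ and 85.9 in Dll1−, and 4 were called higher (16.0%). Equal numbers of rows gave 2 higher (12.8%) and 12 lower (19.2%), and the gene's 5′ end as the TSS gave 2 higher (7.29%). At 10 points 0 were higher and 6 lower, against 3.33% and 12.8% of all promoters. At 1.5-fold 4 were wider and 2 narrower, against 2.90% and 3.40%. By the spread over genes, or 1.5 times for counts, 14 values moved and 42 did not, and none changed direction. Depth differed among the weakest promoters, from 29 and 69 reads at Rpl4 to 180 and 386 at Rpl18, and its part in their ranks was not tested.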

Other observations

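Processed pseudogenes named after these genes were looked up in the same way. Of 259, 31 (11.97%, Wilson 95% interval 8.56% to 16.5%) had a region within 1000 bp, against 7.36% of 8924 processed pseudogenes in all. Rows of both lists were present at 22, of the Dll1+ list alone at 1 and of the Dll1− list alone at 8. The strongest, chosen after the values were seen, was Rpl29-ps2, with fold enrichments of 26.2 in Dll1+ and 26.4 in Dll1−. Near-identical copies can share reads, and how the authors placed such reads is not given in the sources used here, so these values are uncertain. A region in the window need not lie on the copy: at Rpl38-ps1 it was 960 bp away. Whether regions belonged to the pseudogene or to neighbouring sequence was not tested.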
